A study of Mus musculus with 2 samples.

Results

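The 9 genes described here encode complement and acute phase proteins and related secreted factors: C3, C4b, Cfb, Serping1, Hp, Cp, Agt, Gas6 and Lcn2. They were taken by symbol from the 28006 features counted, and all 9 matched exactly 1 feature. Their levels were compared across stromal, endothelial and myeloid cells from mouse femurs. Complement is a chain of plasma proteins that tags and lyses targets. The gene C4b encodes complement C4, which acts in the classical and lectin routes, Cfb drives the alternative route, C3 is where all routes meet, and Serping1 (C1 inhibitor) blocks the proteases that start the classical route. Acute phase proteins are secreted mainly by the liver in inflammation. They include the hemoglobin scavenger Hp (haptoglobin), the copper-carrying ferroxidase Cp (ceruloplasmin) and the siderophore-binding Lcn2 (lipocalin 2), which is also a neutrophil granule protein. Agt is the precursor of the angiotensin peptides, and Gas6 is a ligand of the TAM receptors Tyro3, Axl and Mertk.

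Single-cell RNA sequencing (10x Genomics 3′ chemistry, version 3) was available from 2 mice, 1 library each, and both belonged to 1 group. The mice carried Cxcl12(GFP/+), Cxcl12-iCreER and R26R(tdTomato/+), received tamoxifen at postnatal day 21 and were taken at postnatal day 28. GFP here is driven by the Cxcl12 locus, so every animal had 1 modified Cxcl12 allele, and the sort was aimed at Cxcl12-expressing cells. The paper reports that many sorted cells lay in clusters lacking detectable eGFP, of myeloid, lymphoid and erythroid kinds. It treats them as hematopoietic contamination, so the myeloid-like cells below need not represent marrow myeloid cells. The label for extraction names a tdTomato+ sort while the other labels name GFP+ cells, and the labels give neither strain nor sex. The Cxcl12-creER transgene marks part of the Cxcl12-rich cells, and distal growth plates had been removed. Femoral cells were counted by UMI, a molecular tag that collapses the reads of 1 transcript molecule into 1 count.

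The libraries held 54940400 and 88790688 UMIs, and 2750 and 4582 barcodes were kept as cells by 2 limits, a minimum of 1000 detected genes and a mitochondrial share no higher than 15%. Cells were clustered without the 9 genes and named from markers that exclude them. Reticular-like cells, the Cxcl12-rich marrow stroma, numbered 1242 and 2414 (mouse 1 and mouse 2, the order used throughout). Preosteoblast-like cells numbered 421 and 813, periosteal-like cells 80 and 235, endothelial-like cells 152 and 138, and myeloid-like cells 365 and 327. Of 8 markers each, 7 or 8 were raised in the reticular clusters, 8 in the endothelial ones, 6 to 8 in the myeloid ones and 5 in the periosteal one. Barcodes with 1 to 100 UMIs, which hold RNA free in the suspension, gave the background. The libraries shared 7 cell barcodes. Of 6 hepatocyte markers, Alb, Ttr, Serpina1a and Fgb were at 0 UMIs in all 8 named classes of both mice, and the sum of the 6 was at most 5.54 CPM (counts of a gene scaled to a fixed total of UMIs in its class and mouse).

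Of the gene positions, C4b, Cfb and C3 lie on chromosome 17 of GRCm38 and were annotated as protein-coding in GENCODE. C4b spans chr17:34728380-34743882 and Cfb chr17:34856374-34862518, both on the minus strand. C3 spans chr17:57203970-57228136, Serping1 chr2:84765387-84775444 and Lcn2 chr2:32384633-32388252, also on the minus strand. Gas6 (chr8:13465374-13494490), Hp (chr8:109575128-109579172) and Agt (chr8:124556534-124569706) share chromosome 8, and Cp lies at chr3:19957054-20009145 on the plus strand. C4b has a near-identical copy, C4a, that was not analysed here, so UMIs of shared stretches could have been dropped and its level is uncertain.

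RefSeq promoter windows (GRCm38.p6, 250 bases before to 50 after the start) were held for 5 of the 9 members, C3, Cp, Agt, Gas6 and Lcn2. The bases before the start are shown for C3, which had a level in both stromal and myeloid cells, and for Agt, the member that differed most between reticular- and periosteal-like cells. Both are minus-strand genes, at chr17:57228137-57228386 and chr8:124569707-124569956, and capitals mark C/EBP matches in C3 and the STAT match in Agt.
C3: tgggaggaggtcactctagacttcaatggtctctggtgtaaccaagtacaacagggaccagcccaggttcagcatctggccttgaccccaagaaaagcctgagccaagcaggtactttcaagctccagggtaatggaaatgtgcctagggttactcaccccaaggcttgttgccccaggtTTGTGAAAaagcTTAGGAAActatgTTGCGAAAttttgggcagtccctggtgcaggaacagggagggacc
Agt: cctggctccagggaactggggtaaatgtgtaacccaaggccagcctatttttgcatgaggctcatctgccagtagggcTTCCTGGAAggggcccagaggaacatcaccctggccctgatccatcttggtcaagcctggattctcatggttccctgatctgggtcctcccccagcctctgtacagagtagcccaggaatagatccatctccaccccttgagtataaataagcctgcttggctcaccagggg
Searched on both strands, the C/EBP pattern TTNNGNAA occurred 3 times in the C3 window, at bases 70, 58 and 45 before the start. It also occurred in the Cp, Gas6 and Lcn2 windows, and it is held by 40.7% of the 32851 windows of the table. The STAT pattern TTCNNNGAA occurred only in Agt among these 5 members, against 8.30% of all windows, and the kappaB pattern GGNNTTTCC only in Cp, against 5.82%. The interferon-stimulated pattern GAAANNGAA occurred in none of the 5, against 8.56%. A match is a run of letters and not a measured binding site.

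Hp, Gas6, Serping1, Agt, C4b and Cp had their highest class mean over the 2 mice in reticular-like cells, C3 and Lcn2 in myeloid-like cells, and Cfb in periosteal-like cells. After each cell was thinned to 2000 UMIs, reticular-like cells held a median of 5 of the 9 members, preosteoblast- and periosteal-like cells 3, myeloid-like cells 2 and endothelial-like cells 0. At least 3 members were seen in 96.7% and 98.4% of reticular-like cells. The endothelial share was 5.92% and 13.04%. Free RNA held the same transcripts, with Hp at 1563 and 1178 CPM, Gas6 at 1508 and 1480 CPM and Lcn2 at 578 and 315 CPM, so a low level in any class has this background beneath it.

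**Figure D1:**
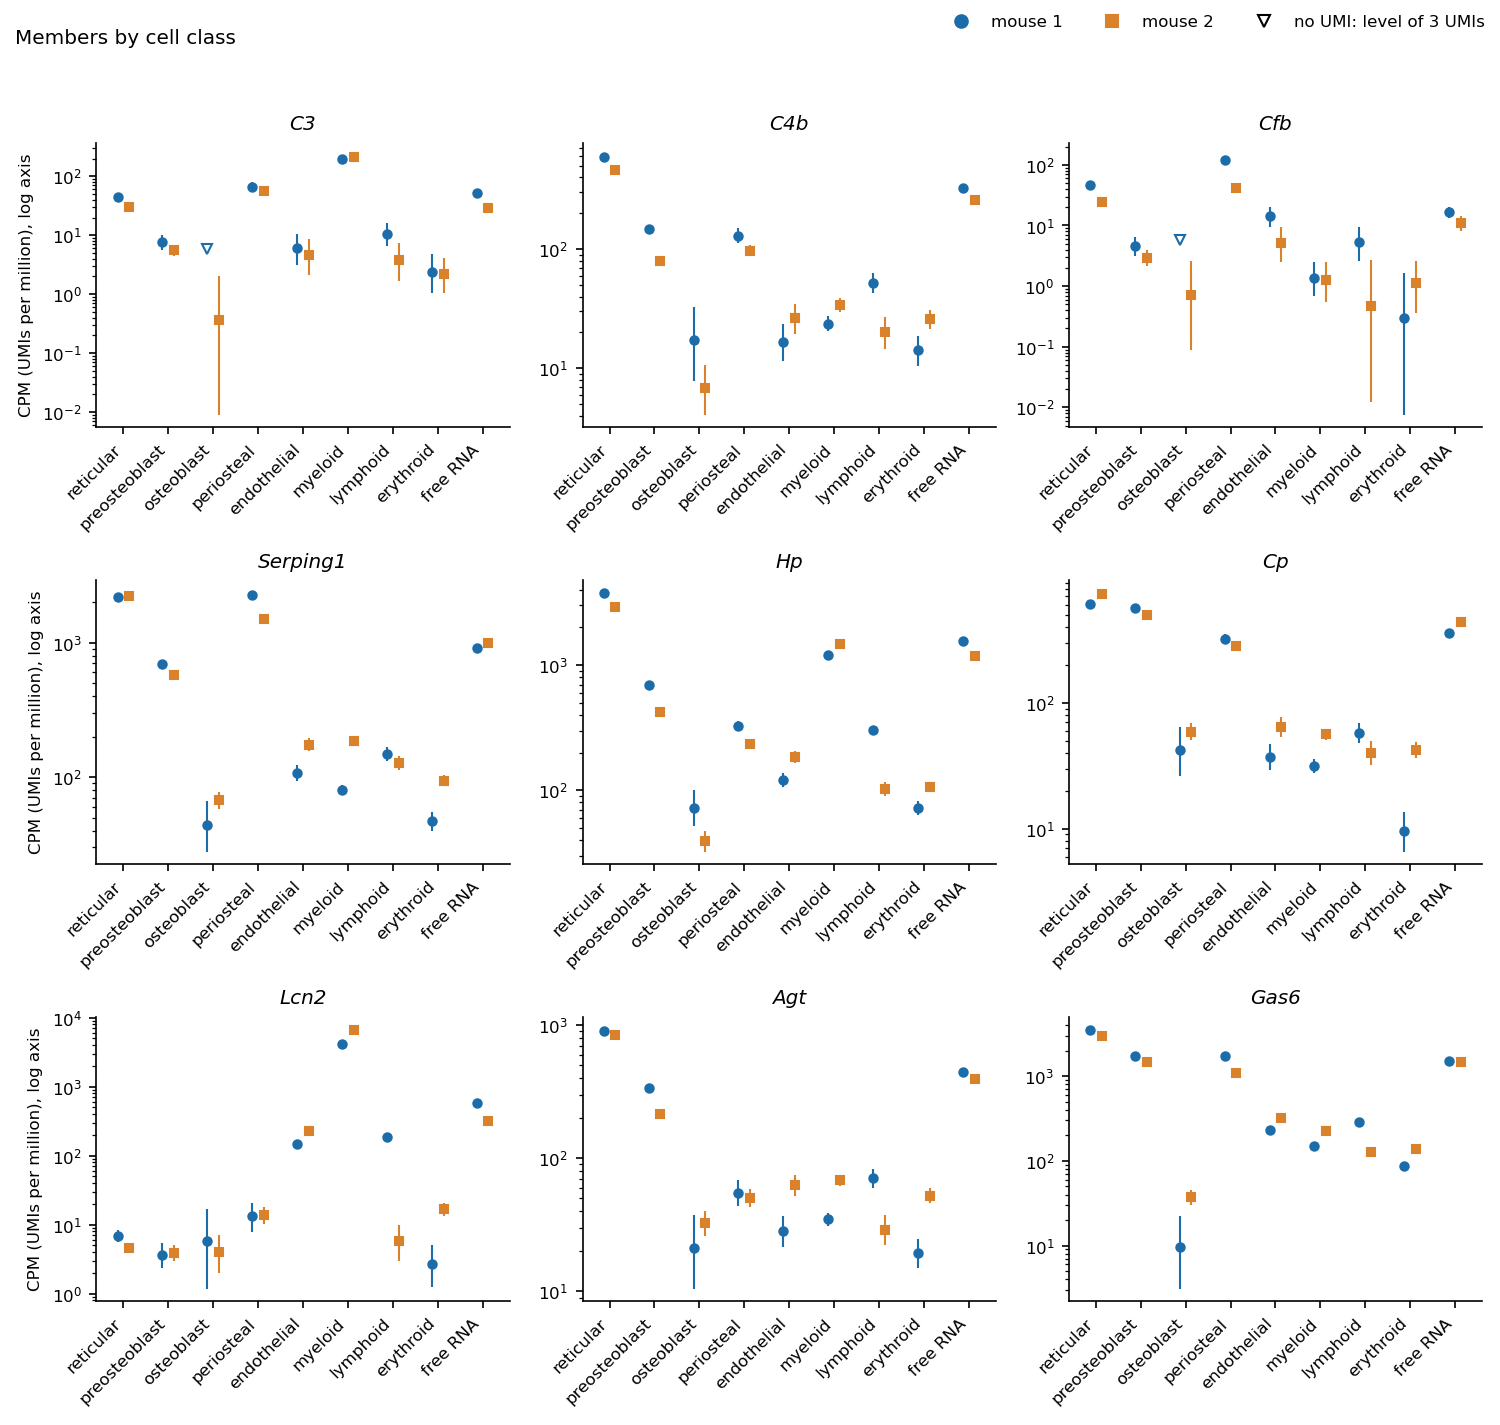
Level of each member in CPM (log axis) summed over the cells of each class and over free RNA, with 1 point per mouse and exact 95% Poisson intervals (counting error alone). Open triangles mark 0 UMIs at the level of 3 UMIs; Hp lies at 3746 and 2896 CPM in reticular-like cells, and Lcn2 at 4094 and 6562 CPM in myeloid-like cells.

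Of the complement components, C4b was a reticular transcript. Reticular-like cells held 591 and 461 CPM. The values were 148 and 79.6 CPM in preosteoblast-like cells and 129 and 96.9 CPM in periosteal-like cells. Both reticular values lay above every value of the other named classes, whereas the preosteoblast and periosteal ranges overlapped. After thinning, 63.3% and 54.9% of reticular-like cells held a C4b UMI, against 4.27% and 2.12% of lymphoid-like cells, a class that should lack the gene. Before thinning the shares were 91.6% and 91.4% against 8.55% and 6.30%, at median depths of 12408 and 11594.5 UMIs per reticular-like cell and 5044 and 4382 per lymphoid-like cell.

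C3 had a lower level in stroma and was spread over both compartments. It reached 195 and 210 CPM in myeloid-like cells, 65.7 and 56.5 CPM in periosteal-like cells and 44.3 and 30.02 CPM in reticular-like cells. These 3 classes did not overlap, and preosteoblast-like cells stood far lower, at 7.59 and 5.54 CPM. C3 UMIs were uneven among reticular-like cells, for the top 1% of cells held 25.8% and 22.7% of them. The same figure for C4b was 4.50% and 4.75%. After thinning, 6.94% and 5.64% of reticular-like cells held a C3 UMI (22.7% and 17.7% before it), against 0.427% and 0.424% of lymphoid-like cells.

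Cfb, the serine protease that pairs with C3b, was found in periosteal-like cells at 121 and 40.9 CPM and in reticular-like cells at 47.1 and 24.8 CPM. The periosteal value was the higher in each mouse, but the ranges of the classes over the 2 mice overlapped. Myeloid-like cells held 11 and 8 Cfb UMIs in all, or 1.37 and 1.27 CPM. In thinned cells a Cfb UMI was present in 8.15% and 4.32% of reticular-like cells, and in 3 of 709 and 1 of 697 hematopoietic cells (0.423% and 0.143%). Before thinning the reticular shares were 28.0% and 17.5%. Among reticular-like cells with a C3 UMI, 14.0% and 6.62% also held Cfb, against 7.71% and 4.18% of cells without C3, on 12 and 9 cells with both.

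Serping1, the inhibitor, was shared by reticular- and periosteal-like cells. It stood at 2202 and 2241 CPM in the former and 2266 and 1502 CPM in the latter, and their ranges overlapped. Preosteoblast-like cells had 698 and 577 CPM. A UMI was seen in 93.3% and 95.1% of thinned reticular-like cells and in 93.8% and 88.0% of periosteal-like cells. Lymphoid-like cells gave 6.41% and 6.78%.

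Among the acute phase proteins, Hp was high in reticular-like cells, at 3746 and 2896 CPM, and 95.2% and 94.1% of thinned cells held a UMI. It was lower in preosteoblast-like cells (695 and 425 CPM) and periosteal-like cells (329 and 234 CPM). Myeloid-like cells held 1207 and 1466 CPM. A UMI was present in 79.9% and 81.7% of thinned myeloid-like cells and in 10.3% and 10.2% of lymphoid-like cells.

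Cp stood at 609 and 737 CPM in reticular-like cells, 564 and 498 CPM in preosteoblast-like cells and 323 and 283 CPM in periosteal-like cells. The 3 ranges did not overlap, but reticular-like cells of mouse 1 exceeded preosteoblast-like cells of the same mouse by only 0.22 on the log2 scale. That ratio uses the TMM scaling of the fit, which the CPM do not.

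Lcn2 was nearly absent from stroma. It was 6.89 and 4.58 CPM in reticular-like cells and 3.66 and 3.90 CPM in preosteoblast-like cells, while myeloid-like cells had 4094 and 6562 CPM. A UMI was seen in 1.13% and 1.20% of thinned reticular-like cells, below the 2.14% and 1.69% of lymphoid-like cells, and was read as background.

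Agt, the angiotensin precursor, was 908 and 851 CPM in reticular-like cells and 335 and 217 CPM in preosteoblast-like cells. Periosteal-like cells had 55.4 and 50.6 CPM, a value within the spread of the hematopoietic classes. In thinned cells, 78.8% and 77.7% of reticular-like cells and 7.5% and 9.83% of periosteal-like cells held Agt.

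Gas6 was 3484 and 2993 CPM in reticular-like cells, 1735 and 1480 CPM in preosteoblast-like cells and 1746 and 1103 CPM in periosteal-like cells. The latter classes overlapped. Gas6 reached 97.5% of thinned reticular-like cells in both mice and 80.0% and 78.6% of periosteal-like cells.

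Differences between classes were tested on UMIs summed per mouse and class, in 1 edgeR fit of all 8 named classes with Benjamini-Hochberg adjustment over 13216 genes. With 2 mice, p-values rest on the spread between these animals within a class, pooled over the 8 classes. The main fit had no mouse term, so it did not use the pairing of classes within a mouse. The comparisons share the reticular-like sums and are not independent. Each SE is the absolute log2 fold change divided by the square root of the F statistic of the fit. It is not an SE over 2 mice, and n is the number of mice. Against preosteoblast-like cells, 6 of 9 members were higher in reticular-like cells and none lower, where 17.0% of all tested genes differed. The log2 fold changes were 3.38 ± 0.53 for Cfb (SE, n = 2, adjusted p = 0.00073), 2.67 ± 0.43 for Hp, 2.62 ± 0.25 for C3, 2.31 ± 0.37 for C4b, 1.90 ± 0.38 for Serping1 and 1.77 ± 0.44 for Agt (adjusted p = 0.014). Gas6 (1.11 ± 0.42, adjusted p = 0.089), Cp (0.44 ± 0.41) and Lcn2 (0.67 ± 0.94) did not pass.

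Against periosteal-like cells, Agt (4.08 ± 0.50), Hp (3.58 ± 0.45) and C4b (2.25 ± 0.38) were higher in reticular-like cells, 3 of 9 members, while 15.7% of all genes differed (adjusted p at most 0.0012). The other 6 did not pass. Values were −0.70 ± 0.24 for C3 (adjusted p = 0.062), −1.09 ± 0.46 for Cfb (0.13), 1.17 ± 0.41 for Cp (0.073), 1.21 ± 0.42 for Gas6 (0.068), 0.26 ± 0.37 for Serping1 and −1.22 ± 0.98 for Lcn2. With mouse as a replicate block, C3 (−0.73, adjusted p = 0.022) and Cfb (−1.04, adjusted p = 0.012) were lower in reticular-like cells and Cp was higher (1.15, adjusted p = 0.038). With the block 6 members passed, where 2279 of 13216 genes did. Without the block, the split of all called genes was 1010 higher and 1071 lower, and 722 and 1383 with RLE size factors.

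**Figure D2:**
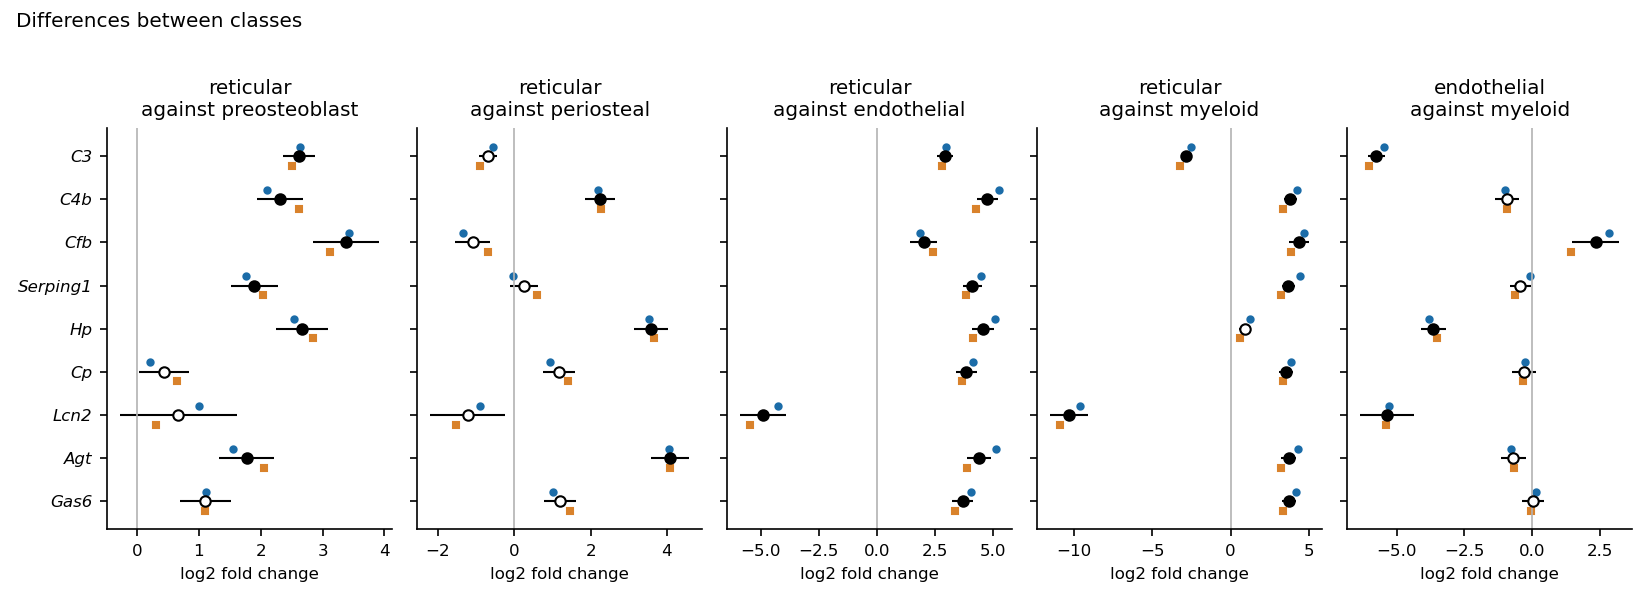
Log2 fold change (first class over second) of each member in the 5 class comparisons. Black circles are the fit with its SE, filled where the adjusted p is under 0.05; blue circles and orange squares are the ratios within mouse 1 and mouse 2, and Agt and Hp lie right of 0 in both mice in each of the 4 reticular comparisons.

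Against endothelial-like cells, 8 of 9 members were higher in reticular-like cells and Lcn2 was lower, where 42.1% of all genes differed. Fold changes on the log2 scale ran from 2.00 ± 0.59 for Cfb (adjusted p = 0.014) to 4.74 ± 0.45 for C4b (adjusted p = 1.9e-06). The split of all called genes was 2893 higher and 2674 lower, and 2421 and 3384 with RLE size factors. The endothelial levels were small shares of the reticular ones. In endothelial-like cells Agt, C4b, Cp, Gas6, Hp and Serping1 stood at between 2.82% and 10.7% of the reticular level of the same mouse, and the sum of the 8 reticular markers stood at 7.17% and 10.5%. In lymphoid-like cells the marker sum was 7.83% and 4.92%. The part of free RNA in these low values was not tested. Cfb (30.1% and 20.7%, on 28 and 10 UMIs) and C3 (13.7% and 15.4%, on 12 and 9 UMIs) stood above the marker sum in both mice. Of these C3 UMIs, 8 and 5 lay in cells with over 3 UMIs of 8 neutrophil markers, and their part was not tested. Gas6 was seen in 23.7% and 26.8% of thinned endothelial-like cells, against 9.83% and 14.0% of lymphoid-like cells.

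The 2 endothelial clusters differed. The smaller, with Selp and F8 among its top 10 genes (28 cells in each mouse), had Gas6 at 473 and 816 CPM, Serping1 at 327 and 506 CPM and Hp at 317 and 513 CPM. The larger (124 and 110 cells) had Gas6 at 156 and 179 CPM, Serping1 at 40.2 and 81.0 CPM and Hp at 60.7 and 92.2 CPM. The reticular marker sum moved with them, from 1096 and 1187 CPM in the larger cluster to 2008 and 4193 CPM in the smaller. Its part in the result was not tested.

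Lcn2 in endothelial-like cells (146 and 226 CPM) was carried by few cells. A UMI was present in 12 of 152 and 9 of 138 cells, and the top 1% of cells held 96.5% and 98.4% of the Lcn2 UMIs. Of 288 and 439 UMIs, 284 and 433 lay in cells with over 3 UMIs of the 8 neutrophil markers. The test gave −4.90 ± 0.98 (adjusted p = 0.0011) for reticular- against endothelial-like cells. When cells outside the myeloid class with over 20 neutrophil marker UMIs were left out, 5 and 2 endothelial-like cells among them, the value turned to 0.40 (adjusted p = 0.46). With both cell limits made stricter together, to 2000 genes and 10% mitochondrial UMIs, it was −1.24 (adjusted p = 0.45).

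Against myeloid-like cells, 6 members were higher in reticular-like cells and 2 lower, where 65.0% of all genes differed. The higher members were Cfb (4.34 ± 0.65), C4b (3.796 ± 0.40), Gas6 (3.71 ± 0.46), Agt (3.70 ± 0.48), Serping1 (3.66 ± 0.41) and Cp (3.54 ± 0.45), with adjusted p at most 5.3e-05. The 5 of these other than Cfb stood in myeloid-like cells at 3.65% to 8.27% of their reticular level, and the reticular marker sum at 4.65% and 7.26%. C3 was lower by −2.85 ± 0.23 (adjusted p = 1.8e-07) and Lcn2 by −10.27 ± 1.22 (adjusted p = 6.4e-06). Hp differed by 0.92 ± 0.40 (adjusted p = 0.061), or 0.88 with the replicate block (adjusted p = 0.048). Between endothelial- and myeloid-like cells 4 of 9 members differed, where 52.5% of all genes did. C3 (−5.75 ± 0.33), Lcn2 (−5.37 ± 0.99) and Hp (−3.65 ± 0.45) were lower in endothelial-like cells, and Cfb was higher (2.34 ± 0.87, adjusted p = 0.036). The Cfb call was lost with the stricter pair of cell limits, 2000 genes and 10% mitochondrial UMIs (1.66, adjusted p = 0.10). This left 3 members, where 6935 of 13030 genes differed. With no filter on low counts 6 members were called, where 7251 of 20215 genes differed.

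Within the myeloid class, Lcn2, Hp and C3 were described by kind of cell, without a test. Lcn2 was 10883 and 12287 CPM in neutrophil-like cells and 4831 and 6841 CPM in granulocyte progenitor-like cells. It was 293 and 679 CPM in monocyte-like cells, where the top 1% of cells held 33.9% and 49.6% of the Lcn2 UMIs. In macrophage-like cells it was 12.1 and 3.10 CPM, on 6 and 1 UMIs. Hp had the same order, with 2181 and 2042, 1359 and 1539, 692 and 953, and 153 and 55.8 CPM. C3 did not, for it was 238 and 287 CPM in progenitor-like cells, 218 and 229 CPM in neutrophil-like cells and 162 and 81.8 CPM in monocyte-like cells. Its macrophage values, 48.3 and 167 CPM in 21 cells of each mouse, lay apart, below and within that range.

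**Figure D3:**
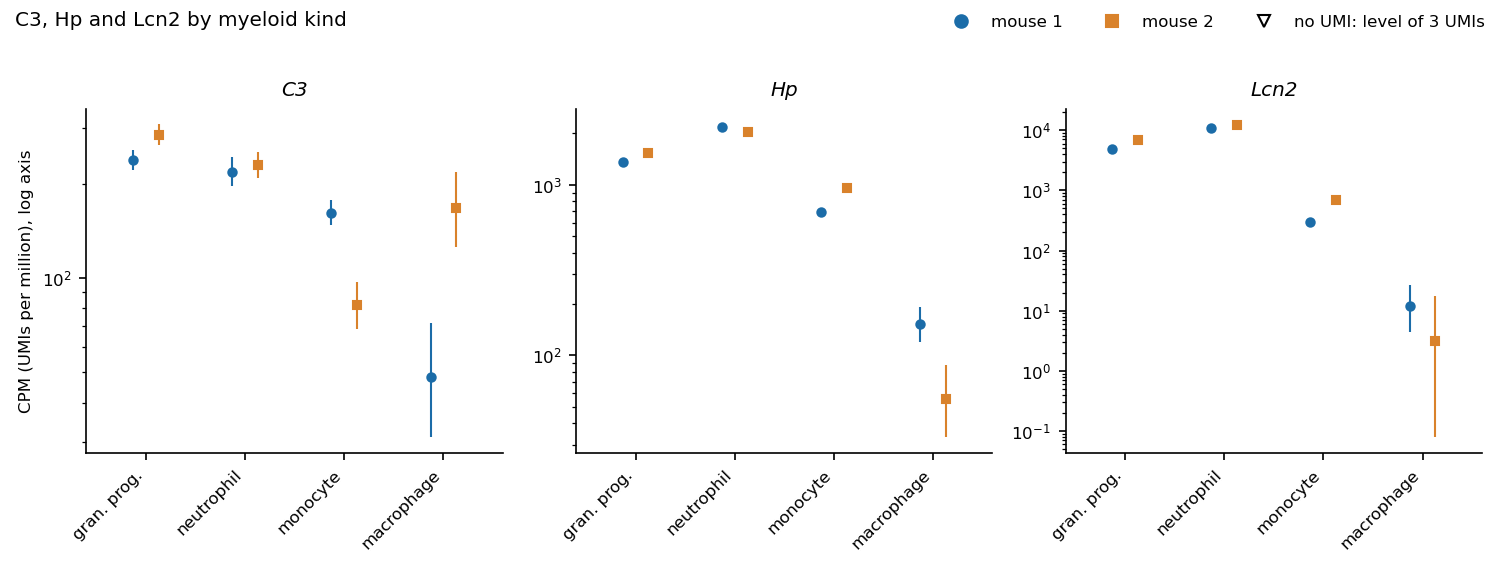
CPM (log axis) of C3, Hp and Lcn2 in the 4 myeloid kinds, 1 point per mouse with exact 95% Poisson intervals. Lcn2 lies at 4831 CPM or more in neutrophil- and progenitor-like cells of both mice. In macrophage-like cells it lies at 12.1 and 3.10 CPM, on 6 and 1 UMIs.

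The reticular-like class was formed by 5 clusters, and the members were present in each. Among the 4 larger clusters, the cluster with the immediate early genes Egr1 and Fos among its top 10 genes (351 and 123 cells) had the highest C3 (58.0 and 35.1 CPM) and Cfb (56.8 and 42.9 CPM) in both mice. It also had the lowest Agt (735 and 693 CPM), Hp (3184 and 2631 CPM) and Gas6 (3061 and 2472 CPM). Agt, Hp and Gas6 in the other 3 ranged from 844 to 1073, 2857 to 4293 and 2894 to 3717 CPM. The smallest cluster, led by Cxcl9 (40 and 42 cells), had the highest Gas6 of the 5, at 4667 and 4373 CPM, and the lowest depth, at a median of 3576 UMIs per cell. These clusters were compared as levels only.

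**Figure D4:**
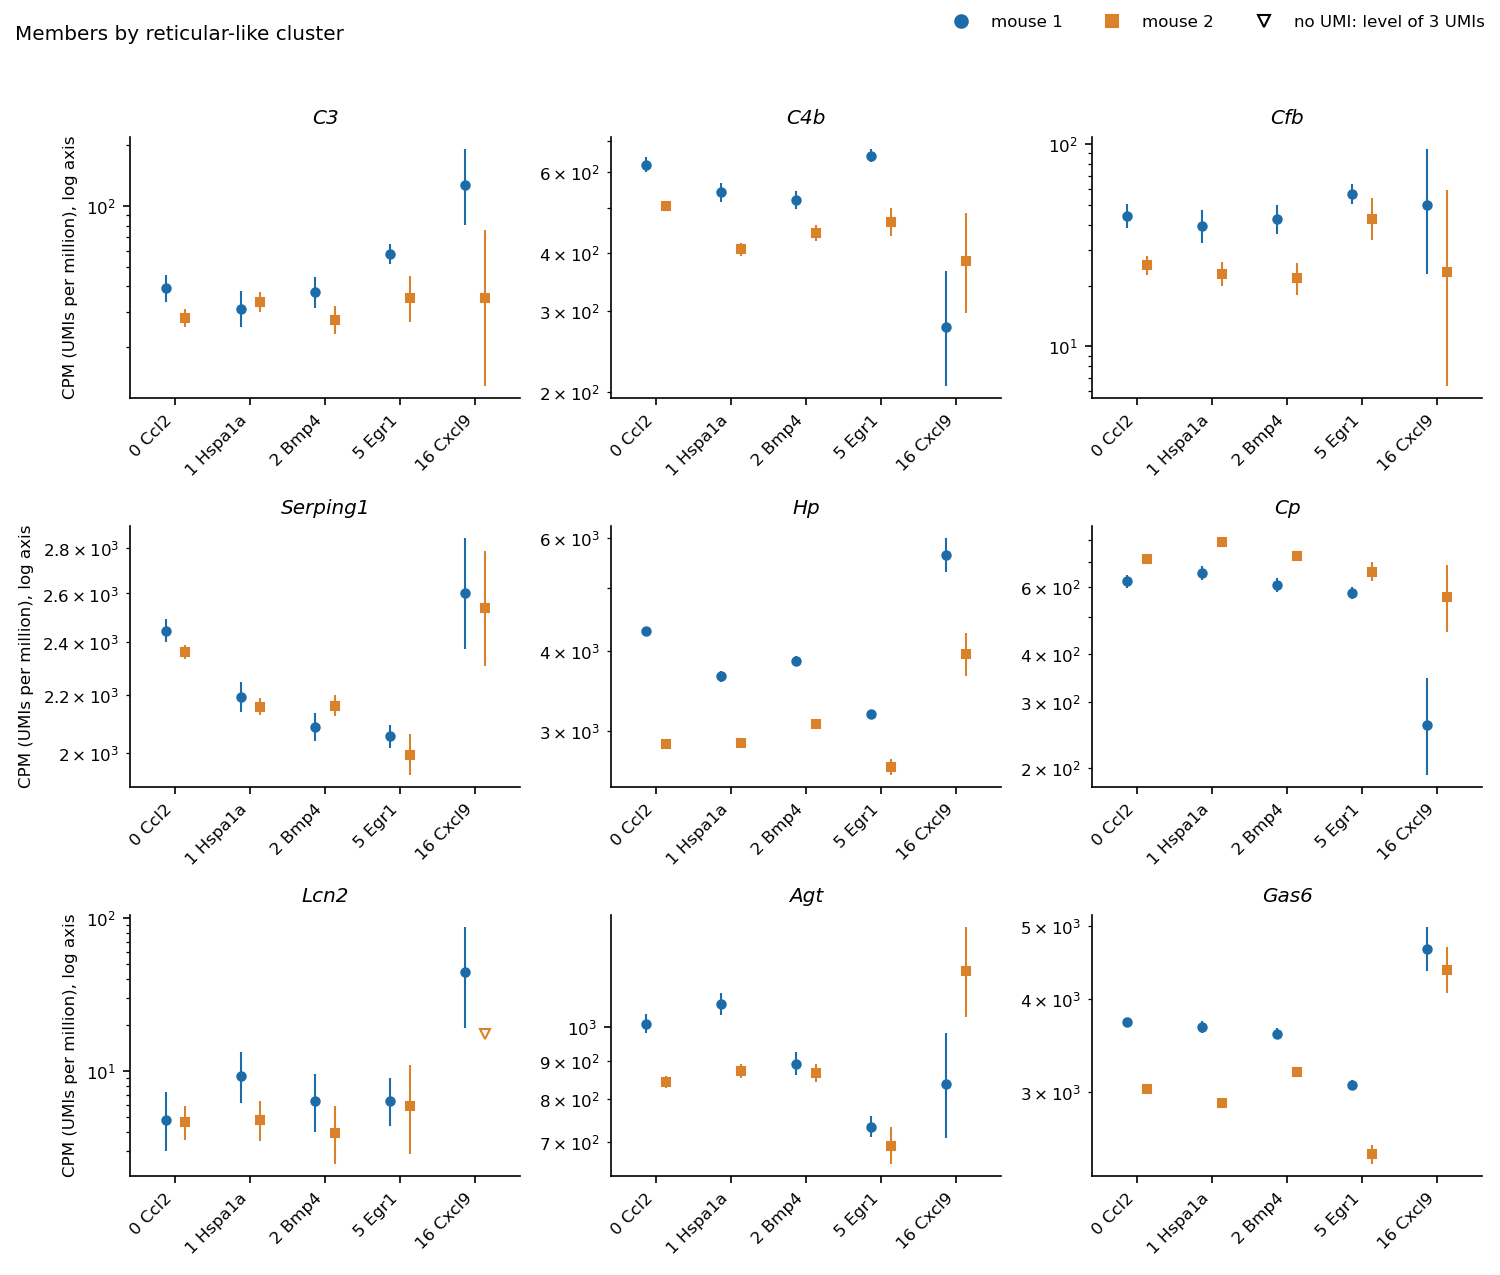
CPM (log axes that differ between panels) of each member in the 5 reticular-like clusters, named by number and 1 of its top 10 genes, 1 point per mouse with exact 95% Poisson intervals. Cfb in the Egr1 cluster lies at 56.8 and 42.9 CPM, above the clusters numbered 0, 1 and 2 in each mouse.

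Reticular-like cells were also split by the tdTomato reporter, which marks cells whose Cxcl12-creER was active at the tamoxifen pulse. Cells above the 99th percentile of hematopoietic cells of their library were called positive, 503 of 1242 and 977 of 2414. Without a block none of the 9 members passed, and 0 of 12188 genes (0.0%) did, with 467 at an unadjusted p under 0.05 and 9 called by DESeq2. With mouse as a replicate block, 4.57% of genes differed and 5 members were higher in positive cells. In mouse 1 Cfb stood at 55.1 CPM with the reporter and 41.6 CPM without it, and in mouse 2 at 32.0 and 19.9 CPM (log2 0.57 ± 0.09, adjusted p = 3.4e-06). C4b (0.25 ± 0.05), Serping1 (0.22 ± 0.04), Gas6 (0.17 ± 0.04) and Hp (0.15 ± 0.04) were also higher, with adjusted p at most 0.019, in both mice. Agt, C3, Cp and Lcn2 lay between −0.05 and 0.14 and did not pass. Drawing positive and negative cells in equal number from each cluster left Cfb (0.51, adjusted p = 0.0030), C4b (0.26, adjusted p = 0.0085) and Serping1 (0.19, adjusted p = 0.017) called, and Gas6 (adjusted p = 0.077) and Hp (adjusted p = 0.21) not. With the block, Cfb and Serping1 alone passed when a positive cell needed 1 tdTomato UMI after thinning (adjusted p = 0.030 and 0.019) and when the highest Scrublet doublet scores were removed (0.035 and 0.016).

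**Figure D5:**
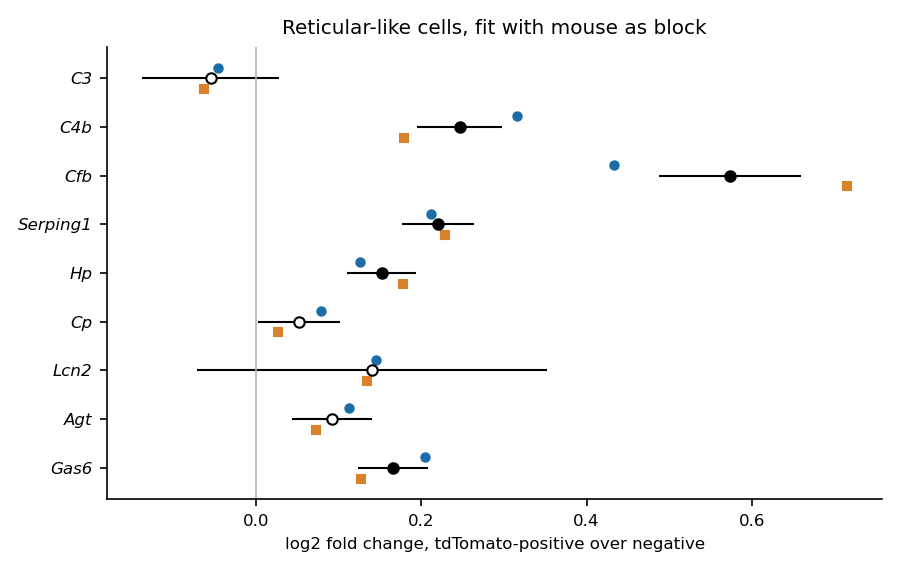
Log2 fold change of each member between tdTomato-positive and tdTomato-negative reticular-like cells. Black circles are the blocked fit with its SE, filled where the adjusted p is under 0.05; blue circles and orange squares are the ratios within mouse 1 and mouse 2. Cfb lies at 0.43 and 0.71 and C3 at −0.05 and −0.06.

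The wider pathways were read from 10 lists of 96 genes, of which 94 were among the features counted. C4a of the classical and lectin list and Cebpd of the list of acute phase regulators matched no feature by symbol. In the class fit 66 genes passed the filter on low counts. In the lists as a whole, 23 were higher and 3 lower in reticular- than in preosteoblast-like cells, and 9 higher and 6 lower than in periosteal-like cells, where 17.0% and 15.7% of all tested genes differed. Against endothelial-like cells the counts were 24 and 14 (42.1% of all genes), and against myeloid-like cells 30 and 22 (65.0% of all genes). Of the classical and lectin list, 7 of 10 genes were tested, and 3 were higher and 4 lower in reticular- than in myeloid-like cells. The proteases C1ra (316 and 342 CPM) and C1s1 (157 and 176 CPM) were stromal (log2 3.75 ± 0.42 and 3.68 ± 0.35). The recognition subunit C1qa was 238 and 311 CPM in myeloid-like cells and 0.37 and 0.46 CPM in reticular-like cells (−9.65 ± 0.36), and C1qc was lower too (−9.31 ± 0.28). C1ra and C1s1 have close copies in mouse, so their UMIs may be split.

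In the alternative list (3 of 4 tested), properdin (Cfp), which stabilises the C3 convertase, was lower in reticular- than in myeloid-like cells (−6.14 ± 0.28). Of the 7 terminal pathway genes only C6 was tested. It was 29.0 and 27.5 CPM in reticular-like cells and higher there than in periosteal-like cells (adjusted p = 0.00011), which held 0 and 5 UMIs, while Hc, which encodes C5, had 0 UMIs in reticular-like cells. Among 6 tested regulators, 4 were higher in reticular- than in myeloid-like cells, a share near the 65.0% of all genes that differed. Clu (clusterin) differed by 3.59 ± 0.42, and Vtn (vitronectin), at 2.80 and 3.49 CPM in reticular-like cells, had 0 UMIs in myeloid-like cells. Of 7 tested receptors 6 were lower, among them Itgam (−9.40 ± 0.52) and Itgb2 (−9.16 ± 0.31), the chains of complement receptor 3. The remaining receptor, Cr2, was higher (5.18 ± 1.59), on 10 and 23 UMIs in reticular-like cells and 0 in myeloid-like cells.

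Of 19 other acute phase genes 6 were tested. Where 17.0% of all tested genes differed, 3 of the 6 were higher in reticular- than in preosteoblast-like cells. These included transferrin, Trf (967 and 818 CPM, log2 2.41 ± 0.44), and the pentraxin Ptx3 (523 and 562 CPM, 2.29 ± 0.52). The median over the 6 was 2.00, against 0.01 over all tested genes. Orm1 was a myeloid transcript (−7.20 ± 0.53 for reticular- against myeloid-like cells), and Crp and Apcs had 0 UMIs in every class.

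For angiotensin, 3 of 7 tested genes were higher in reticular- than in preosteoblast-like cells, where 17.0% of all tested genes differed. These included the receptor Agtr1a (1.88 ± 0.57), at 4.27 and 2.76 CPM in reticular-like cells. Agtr1a was higher in periosteal-like cells (11.8 and 4.83 CPM) and in erythroid-like cells (12.3 and 7.33 CPM). The receptor Agtr2 was at 22.1 and 22.7 CPM in periosteal-like cells and had 0 UMIs in reticular-like cells (adjusted p = 0.00016). The converting enzyme Ace was endothelial, at 115 and 85.3 CPM (−4.27 ± 0.40 for reticular- against endothelial-like cells). Ren1 was 0.06 CPM or less in reticular-like cells. Of the Gas6 receptors, Axl was lower in reticular- than in periosteal-like cells (−4.68 ± 0.29), where it reached 197 and 237 CPM. It was also lower than in myeloid-like cells (−3.56 ± 0.28). Axl was among the 8 markers used to name the macrophage-like cluster of that class, so the myeloid comparison is partly set by the naming. Tyro3 (−1.81 ± 0.47) and Mertk (−0.70 ± 0.22) were lower in reticular- than in preosteoblast-like cells, while the related ligand Pros1 was higher (0.95 ± 0.25).

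In iron and copper handling (11 of 12 tested), the iron exporter Slc40a1 was higher in reticular- than in periosteal-like cells (1.71 ± 0.21), as was the ferroxidase Heph (1.35 ± 0.23), while the endocytic receptor Lrp1 was lower (−1.93 ± 0.49, adjusted p = 0.016). The hemoglobin-haptoglobin receptor Cd163 was lower in reticular- than in myeloid-like cells (adjusted p = 6.2e-05), at 14.98 and 3.33 CPM in the latter and 0 and 6 UMIs in the former. Of 14 tested regulators of acute phase genes, 8 were higher in reticular- than in preosteoblast-like cells and none lower. Of all tested genes, 17.0% differed in that comparison. Il1r1, the interleukin-1 receptor, differed by 1.79 ± 0.30 and Socs3 by 1.33 ± 0.37, and the median of the list was 0.88. Cebpa was higher than in periosteal-like cells (2.65 ± 0.28), while Il6st was lower (−1.04 ± 0.26).

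The genes with the most similar pattern were sought over 38 sums (19 clusters in 2 mice) among 12011 genes, by Pearson correlation of log2(CPM + 1). These sums share libraries, cells' free RNA and animals, so r is a description. Gas6 was nearest to Cxcl12 (0.97), Mme and Aldh1a2, and Serping1 to Gpx3 (0.99), C1rb and Dpep1. Agt was nearest to Kng1 (0.98) and C4b to Kng2 (0.97), with Lepr next for C4b. Cp was nearest to Antxr1 (0.98) and Lcn2 to Ltf (0.98), Ngp and S100a9. Likeness was weaker for C3 (Rab32, 0.84), Hp (Hnmt, 0.88) and Cfb (Adamdec1, 0.89). Among the members themselves, Serping1 and Gas6 (0.97) and C4b and Agt (0.94) were close.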

How the data were processed

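The deposited matrices hold UMI counts that were not normalized, made by the authors with Cell Ranger 3.0.0 on mm10 with reporter sequences per the file headers and the study's methods. The annotation release was not given in the sources used here. Every barcode was deposited, without a filter for cells. Barcodes below 1000 genes or above 15% mitochondrial UMIs were dropped. Counts of 2000 variable genes, without the 9 members, the pathway lists, mitochondrial and reporter genes, were reduced to 30 components and clustered after regression on log depth (leidenalg 0.10.2, 15 neighbours, resolution 0.5). Classes were named from marker lists and need at least 10 cells in each mouse. Cells of 3 clusters stayed unnamed. Scrublet (in scanpy 1.11.5) marked 6 and 3 cells, too few to be taken as working; removal of the highest scores (60 and 168 cells) was an alternative.

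Counts were summed per mouse and class (8 classes, 16 sums) and tested with edgeR 4.0.16 (TMM, filterByExpr, quasi-likelihood, R 4.3.3), with Benjamini-Hochberg adjustment and calls at 0.05. DESeq2 1.42.0 was an alternative. Samples with the same number are the same mouse, and correlations of their deviations from class means were 0.10 to 0.29 between classes and 0.52 between the tdTomato groups. CPM intervals are exact Poisson and shares of thinned cells (2000 UMIs) have Wilson 95% intervals. CPM are UMIs scaled to the total of the class and mouse. Both intervals cover counting error only. The test was checked on simulated counts with a fixed spread and no mouse effect. That setting differs from these data, so the check does not measure the error rate here. The members, lists and tests were chosen with earlier results of these data known. All members were named. List genes were named from the 2 called genes of each list with the largest changes in each direction per comparison, and the text gives a part of these, chosen with their values seen. A withheld item is not reported here. Hc, Crp, Apcs and Ren1 were also named after their values were seen. Removal of cells with neutrophil markers and 3 further blocked tdTomato fits were added after seeing the data.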

Additional observations from a re-analysis of the deposited data

How the results depend on the processing

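For reticular against periosteal, 3 members were called in the main fit, where 2081 of 13216 genes were. The members called rose to 6 with the replicate block, where 2279 of 13216 genes were called. They were also 6 with looser cell limits (500 genes and 20% mitochondrial UMIs, changed together), at 2307 of 13390 genes. Stricter limits (2000 genes and 10%, changed together) gave 6, at 2106 of 13030 genes. Without cells of over 20 neutrophil marker UMIs 6 were called, at 2082 of 13165 genes. With only the classes compared 7 were called (2772 of 12364 genes), and with no filter on low counts 8 (2938 of 20215 genes). In the tdTomato comparison the replicate block moved members called from 0 to 5 and genes from 0 to 557. With the block and matched clusters 3 members and 265 genes were called, with the block and 1 tdTomato UMI 2 and 155, and with the block and doublets removed 2 and 107. Without a block, DESeq2 called 9 genes, no filter 58 and the 1 UMI threshold 1. Genes called for reticular against preosteoblast rose from 2242 to 3735 with only the classes compared. Lcn2 turned from negative to positive for reticular against endothelial with neutrophil marker cells left out (0.40) or Scrublet scores removed (0.32), and against periosteal under these (0.44 and 0.51) and with the stricter cell limits (0.54). Serping1 turned to 0.11 for endothelial against myeloid with the looser cell limits and ranged from −0.027 to 0.60 for reticular against periosteal with 1 mouse left out, and Gas6 from −0.037 to 0.13 for endothelial against myeloid. The reversed values that had a test did not pass it, and the cause was not tested. Leaving out a mouse leaves values without a test. With DESeq2 the calls split 762 higher and 1609 lower for reticular against periosteal and 2327 and 3451 for reticular against endothelial. With the block Hp also passed for reticular against myeloid (0.88, adjusted p = 0.048), and no other member's call changed in that comparison.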
